A study of Macaca mulatta with 12 samples.

Results

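The cells described here are unswitched memory B cells of rhesus macaque blood, split by how far the V segment of their heavy chain has moved from an unmutated sequence of the same animal. They were chosen by the authors' subtype label (CD11c+ MBC 1, M-MZL BC, M-MBC 1 or M-MBC 2) and by the receptor sequence, and carried 1 productive heavy-chain contig of the class IGHM or IGHD. Of 13849 cells in the expression table, 13324 were annotated as B cells, 6914 belonged to the 4 subtypes and 5151 met the contig rule. The divergence of a cell is the number of base differences per 100 bases, over framework 1 to framework 3 of the V segment, to the nearest sequence of the same length, the same animal and the same V gene that was shared by 3 or more different heavy CDR3s of unswitched cells. Such a shared sequence stands in for the germline allele, and 4704 of the 5151 cells had one. A cell at 2 or more differences per 100 bases is called mutated here (1166 cells), a cell at 0 is called unmutated (2286 cells), and 1252 cells lay between.

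The study profiled blood mononuclear cells of 6 juvenile rhesus macaques (Indian origin, 2 to 3 years old, healthy and unmanipulated), by droplet 5′ single-cell RNA sequencing with a paired B cell receptor library for each animal. The 2 males formed batch 1 and the 4 females formed batch 2, so sex and batch cannot be told apart. All cells of both classes came from the same untreated animals, and each animal supplied its own comparison. Mutated and unmutated cells numbered 292 and 431 in male 1, 277 and 458 in male 2, 268 and 575 in female 1, 130 and 223 in female 2, 163 and 586 in female 3, and 36 and 13 in female 4. In female 4, 115 cells had no reference sequence or an incomplete V segment, and no subtype held 10 cells of both classes, so female 4 enters only the comparison over all subtypes together.

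Somatic hypermutation is the process by which B cells change the bases of their antibody V segments. Cytosines are deaminated, preferentially where an A or T and then a purine come just before the C, and error-prone repair then spreads changes to neighbouring bases. It is best known from germinal centres, where B cells carrying changed receptors compete for antigen and survivors become memory cells. Memory cells that still make IgM or IgD without class switching are a mixed population, and marginal zone-like B cells and CD11c-expressing B cells can both be found among them. The amount of mutation in the receptor is a record of a cell's past that is read from the receptor library and not from the gene expression counts.

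The 4 sequences below, 2 references of the V gene IGHV4-122 and a mutated cell of each, let the divergence be read base by base. They come from the 2 animals with the most mutated and unmutated cells together. In each animal the reference with the most mutated cells was chosen. Each mutated cell has the median number of differences among the mutated cells of its reference. The reference of female 1 was carried by cells with 43 different heavy CDR3s, and 22 unmutated, 13 intermediate and 15 mutated cells were assigned to it. The reference of female 3 was carried with 94 different CDR3s and had 58 unmutated, 11 intermediate and 16 mutated cells. Each V segment is 288 bases long, counted from 1 at the first base of framework 1, and in the references capitals mark CDR1 (bases 76 to 102) and CDR2 (bases 160 to 174). In the mutated cells capitals mark the bases that differ from the reference above them.
IGHV4-122 reference of female 1: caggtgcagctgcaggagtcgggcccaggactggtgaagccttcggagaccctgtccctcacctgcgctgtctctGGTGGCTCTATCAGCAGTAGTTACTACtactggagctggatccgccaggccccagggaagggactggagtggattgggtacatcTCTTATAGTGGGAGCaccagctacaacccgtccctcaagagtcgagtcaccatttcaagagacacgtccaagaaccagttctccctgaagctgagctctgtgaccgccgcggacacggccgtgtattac
IGHV4-122 of a mutated M-MBC 1 cell of female 1: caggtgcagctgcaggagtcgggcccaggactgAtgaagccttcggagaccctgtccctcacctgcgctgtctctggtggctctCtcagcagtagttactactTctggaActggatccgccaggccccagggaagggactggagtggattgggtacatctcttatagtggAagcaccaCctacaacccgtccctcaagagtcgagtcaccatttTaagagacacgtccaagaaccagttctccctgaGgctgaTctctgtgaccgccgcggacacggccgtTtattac
IGHV4-122 reference of female 3: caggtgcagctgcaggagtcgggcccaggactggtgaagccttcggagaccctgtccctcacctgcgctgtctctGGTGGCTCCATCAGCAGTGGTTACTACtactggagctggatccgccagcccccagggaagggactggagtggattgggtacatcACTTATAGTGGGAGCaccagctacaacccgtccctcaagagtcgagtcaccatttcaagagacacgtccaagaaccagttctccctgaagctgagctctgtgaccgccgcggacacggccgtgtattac
IGHV4-122 of a mutated CD11c+ MBC 1 cell of female 3: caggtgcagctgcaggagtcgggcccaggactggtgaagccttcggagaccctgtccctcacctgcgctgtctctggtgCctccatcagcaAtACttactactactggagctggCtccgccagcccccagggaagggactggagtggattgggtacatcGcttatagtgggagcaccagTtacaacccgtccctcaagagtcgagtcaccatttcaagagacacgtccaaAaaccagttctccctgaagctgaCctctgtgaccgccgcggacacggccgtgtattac
The M-MBC 1 cell of female 1 carried 10 differences, 3.47 per 100 bases, which were G34A, A85C, A104T, G110A, G171A, G179C, C215T, A248G, G254T and G282T. Of these, 2 lay in a CDR. The CD11c+ MBC 1 cell of female 3 carried 9 differences, 3.13 per 100 bases, which were G80C, G92A, G94A, G95C, A115C, A160G, C180T, G231A and G254C. Of these, 5 lay in a CDR. In each of the cells, 4 differences fell on a C or G inside a hypermutation motif.

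Some positions of this gene had changed in many cells. Among 28 cells of female 1 with at least 1 difference to the reference, G167C occurred in 8, G95A, C99T and G282A in 6 each, and A104T and G179C in 5 each. Among 27 such cells of female 3, G153A, G173C, G179A and G282A occurred in 5 each, and G89C and G249C in 4 each. The substitution G282A was thus found repeatedly in both animals. How many of the repeated substitutions were shared by descent among cells was not tested.

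The divergence chose the classes, so its size and pattern are given as a description with no test. Mutated cells had a median of 3.47 differences per 100 bases, with a range from 2.04 to 20.8, which is 6 to 60 changed bases and a median of 10. In all they held 13422 differences. Intermediate cells had a median of 1.04 per 100 bases. Of 1355 unswitched cells annotated as Naive B cells 1 that had a reference, 96.2% lay at 0 and 0.738% at 2 or more. Naive cells were among the unswitched cells that supplied the references, so these shares are not an independent check of them.

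The differences of mutated cells were densest at hypermutation motifs and in the CDRs. The motif searched was AAC, AGC, TAC or TGC read at the C, and its reverse complements GTT, GCT, GTA and GCA read at the G. AGC and GCT overlap in AGCT, and motif positions made up 12.0% of all bases and 21% of C and G positions in the references. At motif positions 14.7 ± 1.16 of 100 bases differed (mean ± SD of 6 animals, 12.8 to 16.5), and at other C or G positions 2.02 ± 0.208 (1.65 to 2.25), so the ranges of the animals lay far apart. Bases that are A in the reference differed at 4.56 ± 0.275 per 100 and bases that are T at 1.95 ± 0.287. Per 100 bases, CDR2 held 10.4 differences, CDR1 6.46, framework 3 4.44, framework 2 3.72 and framework 1 1.48. Transitions made up 57.8 ± 1.02% of differences. In the CDRs 79.3% of differences changed the amino acid, beside 79.4% of all possible single-base changes there, and in the frameworks 62.2%, beside 75.4% of all possible ones. Intermediate cells had 4.04 differences per 100 motif positions beside 0.412 at other C or G positions.

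The subtypes differed in their share of mutated cells, and this bears on every comparison that follows, because the authors named the subtypes from the same expression values that are compared here. Of cells with a reference, 48.7 ± 7.67% of M-MZL BC (SD, n = 6 animals) and 48.7 ± 7.37% of M-MBC 2 (n = 5) were mutated. The share was 11.8 ± 7.59% in M-MBC 1 (n = 6) and 15.9 ± 6.54% in CD11c+ MBC 1 (n = 5). Unmutated cells made up 67.3 ± 13.5% of M-MBC 1, 61.1 ± 9.32% of CD11c+ MBC 1, 18.5 ± 5.13% of M-MBC 2 and 16.4 ± 1.52% of M-MZL BC. A comparison over all subtypes together therefore sets mostly M-MZL BC and M-MBC 2 cells against mostly M-MBC 1 and CD11c+ MBC 1 cells.

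**Figure D1:**
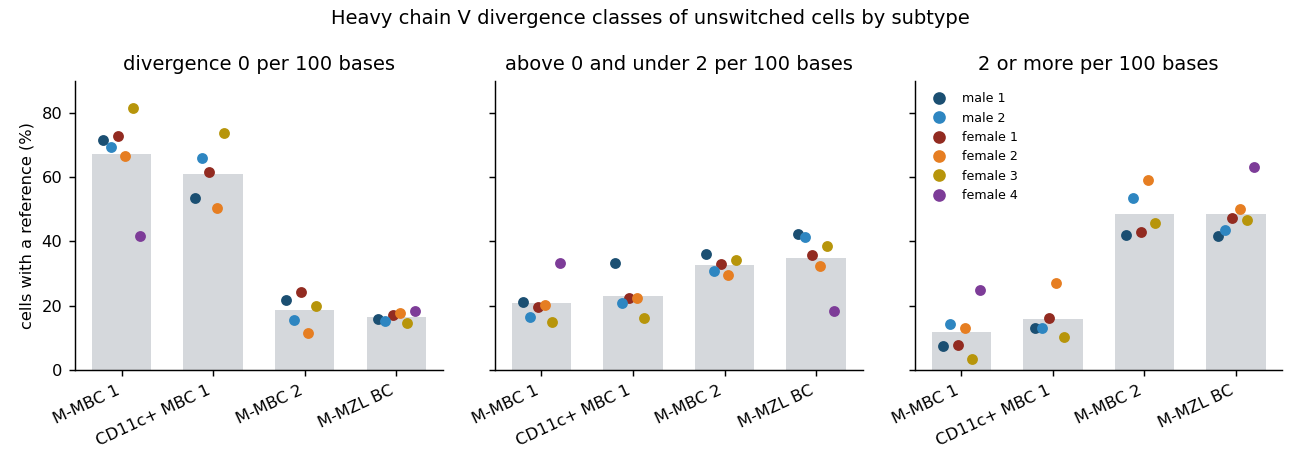
Share in percent of cells with a reference that were unmutated, intermediate or mutated, by subtype, with bars for the mean of the animals and a point for each animal. Mutated cells are 48.7% of M-MZL BC and of M-MBC 2 as a mean of the animals, and 11.8% of M-MBC 1.

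The subtype labels were set against marker genes in the unmutated cells. ITGAX, which encodes CD11c, was at 783 ± 245 CPM (the count of the gene scaled to the total count of all named genes in the summed cells, per 1e6) in CD11c+ MBC 1, 358 in M-MBC 2, 277 in M-MBC 1, 79.2 in M-MZL BC and 9.86 in Naive B cells 1. The complement receptors CR2 and CR1, high on marginal zone cells, were at 55.5 ± 20.3 and 167 ± 48.4 CPM in M-MZL BC. In CD11c+ MBC 1 they were at 1.02 and 33.0 CPM. CD1C, another marginal zone marker, went against the label, at 288 CPM in M-MZL BC and 507 CPM in CD11c+ MBC 1. TNFRSF13B, which encodes the memory marker TACI, was at 63.5 to 194 CPM in the 4 subtypes and 5.77 in Naive B cells 1. The B cell gene MS4A1 (CD20) had a count in 96.3% of mutated and 97.1% of unmutated cells. CD27 was not among the named genes used here.

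The light chain, framework 4 and the J gene were not used to choose the classes. The constant gene (IGHM or IGHD) admitted the cells, and different heavy CDR3s were counted to set the references. Light-chain V segments, measured against references of their own, diverged together with the heavy chain. Unmutated cells had 0.126, 0.0970, 0.100, 0.319 and 0.105 differences per 100 light-chain bases in male 1, male 2, female 1, female 2 and female 3, and mutated cells had 1.74, 1.74, 1.99, 2.38 and 2.19. The classes did not overlap, and the mutated cells were higher by 1.86 ± 0.226 (SD, n = 5; exact two-sided sign-flip permutation test p = 0.0625, adjusted 0.140625 over 18 features), which is the smallest p that 5 animals allow. Framework 4, the part of the heavy chain encoded by the J segment, was set against its most common sequence in unswitched cells of the same animal and J gene. It had 1.24 ± 0.427 differences per 100 bases in mutated cells and 0.110 ± 0.132 in unmutated cells, higher in 6 of 6 animals (exact permutation p = 0.03125, adjusted 0.1125). Around the threshold, 211 cells lay between 1.5 and 2 differences per 100 heavy-chain bases and 278 between 2 and 2.5. Mean light-chain divergence was 1.02 in the 171 of the former, and 1.19 in the 230 of the latter, that had a light-chain value.

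The share of cells with an IGHD contig was lower in the mutated cells of every animal, a difference that did not pass the adjustment. Each cell had 1 heavy-chain contig, either IGHM or IGHD, so the share does not tell which cells make IgD. It was 40.6%, 16.8%, 16.5%, 60.5%, 26.5% and 23.1% among unmutated cells of male 1, male 2 and females 1 to 4, and 14.7%, 4.33%, 5.60%, 41.5%, 8.59% and 8.33% among mutated cells. It was lower in mutated cells of 6 of 6 animals (exact permutation p = 0.03125, adjusted 0.1125), although the animals' ranges overlapped widely. Averaged within subtypes it was 17.8% in mutated and 27.2% in unmutated cells, lower in 5 of 5 animals. The joining gene IGHJ6 was used by 9.32 ± 2.28% of mutated and 14.6 ± 2.31% of unmutated cells, lower in 5 of 6 animals, and by 9.18% and 14.2% within subtypes, lower in 5 of 5. The heavy CDR3 was 13.0 amino acids long on average in mutated cells and 13.9 in unmutated cells, lower in 5 of 6 animals and, within subtypes, in 4 of 5. Of the 18 features, 5 had an exact permutation p under 0.05 over all subtypes and none did after adjustment, where the smallest value was 0.1125.

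**Figure D2:**
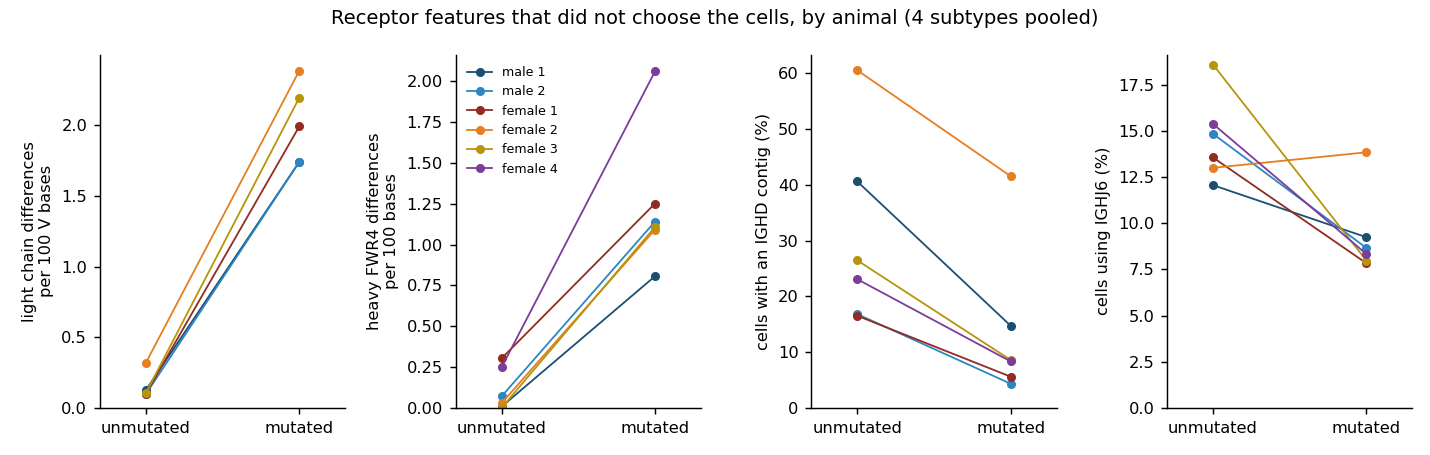
Light-chain and framework 4 differences per 100 bases, and the percent of cells with an IGHD contig and with IGHJ6, in unmutated and mutated cells of each animal, joined by lines. The light-chain and framework 4 divergence are higher and the share of cells with an IGHD contig is lower in the mutated cells of every animal shown.

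The number of counts per cell moved with the classes over all subtypes. The median was 5687 per mutated cell and 4906 per unmutated cell as a mean of the animals, higher in 6 of 6. Within subtypes the mean difference was -24.0, higher in 3 animals and lower in 2. The ribosomal share of counts was 18.0% and 17.0% over all subtypes and higher in mutated cells by 0.466 percentage points within subtypes, in 5 of 5 animals. The comparison of expression was therefore led by pairs of mutated and unmutated cells of the same animal and the same subtype, with 10 or more cells on each side. This gave 19 pairs from 5 animals, with 11 to 358 cells and 50509 to 1576684 counts in each sum. Fits over such pairs count each pair as a separate replicate, although pairs of the same animal are not independent. Their p-values and SEs therefore do not measure the spread between animals. Barcodes found in more than 1 library numbered 96, and 47 of the mutated or unmutated cells carried such a barcode.

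Within animal and subtype, mutated cells had higher SPAG16, DLGAP1, LGALS3, ATRNL1 and S100A11 and lower LDB2, LILRB1, CEMIP2 and CD72 than unmutated cells. Of 4482 genes tested, 273 passed edgeR's quasi-likelihood test at an adjusted p of 0.05 (6.09%), 134 higher (2.99%) and 139 lower (3.1%) in mutated cells. The changes were mostly small: 14 of the 273 exceeded a log2 change of 1. Of the 273 genes, 195 had 1 direction in every animal, and 11 genes of the 4482 had animal means that did not overlap between the classes (0.245%). The count was 181 without female 1, 173 without female 3, 170 in the females alone and 69 in the males alone. Without the cells of shared barcodes it was 274, and with limma on 1 difference for each animal it was 139.

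SPAG16, known for a part in the axoneme of cilia and sperm tails, had the largest change. It was at 83.6, 171, 60.7, 27.0 and 78.2 CPM in unmutated cells of male 1, male 2, female 1, female 2 and female 3, and at 272, 529, 359, 164 and 425 CPM in mutated cells. Male 2 had the highest and female 2 the lowest value in both classes, so the ranges overlapped although each animal was several times higher in its mutated cells. The log2 change was 2.14 ± 0.12 (SE; edgeR's quasi-likelihood test, adjusted p = 2.46e-23), in 5 of 5 animals.

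DLGAP1, a scaffold protein of synapses, followed at a log2 change of 2.07 ± 0.14 (edgeR's quasi-likelihood test, adjusted p = 2.1e-18). Its levels were 199, 347, 205, 32.5 and 108 CPM in unmutated cells of the same animals and 553, 1379, 709, 224 and 401 CPM in mutated cells. Every animal was higher in its mutated cells, and male 2 was again the highest in both classes. ATRNL1, attractin like 1, was at 163, 92.3, 196, 11.9 and 49.2 CPM in unmutated cells and at 325, 251, 415, 75.5 and 184 CPM in mutated cells (log2 change 1.37 ± 0.12, adjusted p = 3.86e-13).

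LGALS3 encodes galectin-3, a sugar-binding protein found in many activated and memory cells. Its levels were 16.6, 29.3, 11.2, 43.7 and 30.5 CPM in unmutated cells and 42.1, 50.7, 104, 133 and 92.6 CPM in mutated cells, with a log2 change of 1.87 ± 0.20 (edgeR's quasi-likelihood test, adjusted p = 1.25e-10). The females had the higher levels among mutated cells, and the highest unmutated animal lay just above the lowest mutated one. TNFSF9, the ligand of the costimulatory receptor 4-1BB, rose by 1.19 ± 0.16 and S100A11, a calcium-binding S100 protein, by 1.11 ± 0.14. Further genes that rose were PARP8 (1.01 ± 0.15), the death receptor gene TNFRSF10B (1.01 ± 0.19) and MGST3, a glutathione transferase (0.95 ± 0.17).

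CD3D, which encodes a subunit of the T cell receptor complex, also rose, from 26.6 ± 9.01 to 60.0 ± 19.6 CPM (log2 change 1.15 ± 0.19, edgeR's quasi-likelihood test, adjusted p = 1.11e-05). With all subtypes and animals together, a count of it was found in 20.1% of mutated and 6.78% of unmutated cells. These shares contain the differences between subtypes and in counts per cell (median 5687 in mutated and 4906 in unmutated cells). Over 12 T cell markers together, the summed level was 97.7 to 174 CPM in unmutated and 164 to 219 CPM in mutated cells, and none of the 12 was at 0 in either class. CD3G was at 9.81 CPM in unmutated and 29.0 CPM in mutated cells, CD3E at 14.2 and 16.9, TRAC at 3.98 and 5.89, and CD2 at 13.9 and 8.76. The part of T cell RNA in these changes was not tested.

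Of the genes that fell, LDB2, a cofactor of LIM-domain transcription factors, had the largest change. It was at 134, 160, 247, 87.4 and 202 CPM in unmutated cells of male 1, male 2, female 1, female 2 and female 3 and at 35.4, 77.5, 88.4, 25.3 and 47.8 CPM in mutated cells. The lowest unmutated animal, female 2, lay just below the highest mutated one, female 1, and the log2 change was -1.52 ± 0.13 (edgeR's quasi-likelihood test, adjusted p = 2.29e-14). LILRB1, an inhibitory receptor that binds MHC class I, was at 234, 96.0, 98.6, 105 and 183 CPM in unmutated cells and at 66.1, 38.2, 56.3, 16.9 and 84.6 CPM in mutated cells. These ranges did not overlap (log2 change -1.25 ± 0.14, adjusted p = 1.11e-09).

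MPP7, a scaffold protein of cell junctions, did not overlap either in the 5 animals with pairs. As a mean over subtypes it was at 51.3 to 69.4 CPM in unmutated and 10.3 to 36.5 CPM in mutated cells (log2 change -1.29 ± 0.23). By subtype, in plain CPM, MPP7 went from 80.2 to 10.2 in M-MBC 1, from 38.1 to 12.1 in M-MBC 2 and from 78.6 to 49.4 in M-MZL BC, while in CD11c+ MBC 1 it was at 19.6 ± 1.58 in unmutated and 25.9 (4.04 to 55.1 over the animals) in mutated cells. Each side takes the animals with 10 or more cells of that class, so the sides can rest on different animals. Female 4 enters only the mutated side of M-MZL BC (24 cells, beside 7 unmutated). Female 2 enters only the mutated side of M-MBC 2 (26 cells, beside 5 unmutated). CEMIP2, a cell-surface hyaluronidase, fell by 1.04 ± 0.11 on the log2 scale. The titin gene TTN changed by -1.01, LDLRAD4, an inhibitor of TGF-beta signalling, by -0.96, the kinase gene TNIK by -0.94 and the transcription factor gene ETS2 by -0.82. CD72, an inhibitory co-receptor of B cells, changed by -0.77 ± 0.13.

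**Figure D3:**
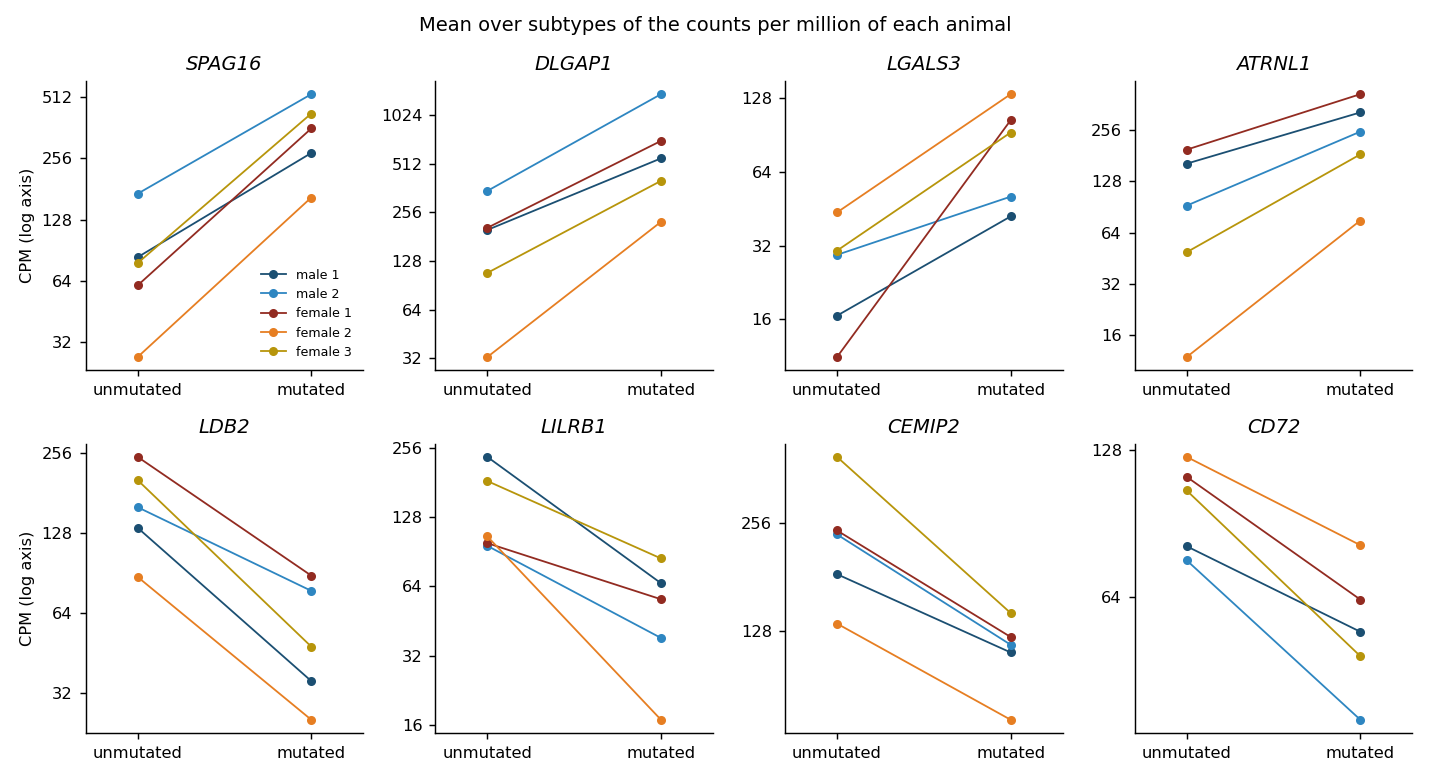
CPM on a log axis of 8 genes in unmutated and mutated cells of each animal, as the mean over its subtypes. SPAG16 and DLGAP1 are higher and LDB2 and LILRB1 lower in the mutated cells of all 5 animals.

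Lists of genes were read against the share of all tested genes that passed, against the 16.7% of all tested genes (749 of 4482) with an unadjusted p under 0.05, and against the median log2 change of all tested genes, which was -0.01. Of 17 measured genes that mark memory B cells, 9 rose and none fell in edgeR's quasi-likelihood test (1 fell at an unadjusted p under 0.05), with a median change of 0.31. They were the S100 proteins S100A11, S100A6 (0.84 ± 0.11), S100A10 (0.43 ± 0.06) and S100A4 (0.29 ± 0.08), the membrane-binding annexin ANXA2 (0.47 ± 0.09), the intermediate filament gene VIM (0.37 ± 0.05), the integrin subunit ITGB1 (0.46), CRIP1 (0.33) and the actin-capping CAPG (0.31). S100A4, ITGB1 and CAPG were higher in 4 of 5 animals only. DESeq2 called 8 of the list, all higher. The summed T cell markers were at 97.7 to 174 CPM in unmutated and 164 to 219 CPM in mutated cells, ranges that overlapped. CD3D and CD3G had the largest rises among them, while CD2, CD8A and IL7R were lower in mutated cells. The part of T cell RNA was not tested.

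Of 13 genes of naive B cells, 5 fell and 1 rose (median -0.21), and DESeq2 called 4 lower and 1 higher, without PLPP5. BACH2, a repressor that holds back plasma cell formation, changed by -0.45 ± 0.08, the chromatin organiser SATB1 by -0.67, FCRL1 by -0.29 and PLPP5 by -0.63, beside CD72. The exception was CCR7, the receptor that guides lymphocytes into lymph nodes, which rose by 0.69 ± 0.12 (edgeR's quasi-likelihood test, adjusted p = 3.96e-05) in 5 of 5 animals. Of 12 homing genes, 5 rose and 1 fell (median 0.12), and DESeq2 called 3 higher and 1 lower, without CD44 and ITGB7. CCR7, ITGB1, CD99 (0.59), ITGB7 (0.37) and CD44 (0.18) rose, while CCR6, a receptor for mucosal chemokine CCL20, changed by -0.72. ITGB1 and ITGB7 were higher in 4 of 5 animals only.

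Some genes of the B cell receptor complex and of antigen presentation fell. Of 17 receptor signalling genes, 6 fell and none rose (1 rose at an unadjusted p under 0.05 in edgeR's quasi-likelihood test), with a median of -0.13. DESeq2 also called 6, all lower. Among them were the receptor subunit CD79A (-0.27 ± 0.05), the co-receptor subunit CD81 (-0.28), CD20 (MS4A1, -0.16), the adaptor PIK3AP1 (-0.23) and the exchange factor VAV3 (-0.72). CD79A, CD81 and VAV3 were lower in 4 of 5 animals only. Of 10 genes of MHC class II presentation, 5 fell and none rose (none at an unadjusted p under 0.05, and none in DESeq2), with a median of -0.11. The largest change of the 5 was that of IFI30, a thiol reductase of endosomes, at -0.32 ± 0.04, and the invariant chain CD74 changed by -0.10 ± 0.02. CD74 lost its call when CD11c+ MBC 1 was left out (adjusted p = 0.081).

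Atypical and age-associated genes went both ways, with 3 of 11 higher and 2 lower (median 0.01), and DESeq2 called CD86 and TYROBP higher and LILRB1 lower, with FCRL2 at an adjusted p of 0.062 and ITGAX at 0.055. CD86, a costimulatory ligand, rose by 0.87 ± 0.11, the adaptor TYROBP by 0.56 and FCRL2 by 0.83, the last in 3 animals of 5 only. LILRB1 and ITGAX fell, and the change of ITGAX was small, at -0.27 ± 0.08 (adjusted p = 0.0358). Without female 3 it was -0.17 (adjusted p = 0.36), and the call was also lost without female 1 and without male 2.

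Of 23 listed genes of the hypermutation and repair machinery, 11 passed the filter on low counts and were tested within subtype. None of the 11 passed in edgeR's quasi-likelihood test or in DESeq2 (1 lower at an unadjusted p under 0.05), with a median of 0.05. The remaining listed genes were not tested within subtype. Over all subtypes 17 were tested and POLH passed as lower, a comparison that contains the differences between subtypes. Within subtype, the translesion polymerase gene POLH, which makes the changes at A and T, was at -0.27 in 5 of 5 animals but with an adjusted p of 0.192. Of 17 listed marginal zone genes, 8 were tested and none passed in edgeR or DESeq2 (1 higher and 2 lower at an unadjusted p under 0.05, median 0.07). CD1C was at -0.22 (edgeR's adjusted p = 0.0747) and CR1 at -0.48 (adjusted p = 0.0929). TNFRSF13B was at 0.20 (adjusted p = 0.30). Of 9 germinal centre genes, KLHL6 rose (0.57) and BCL6 (-0.62) and P2RY8 (-0.20) fell, BCL6 and P2RY8 each in 4 of 5 animals only. The call of KLHL6 was lost without female 3 (adjusted p = 0.069) and without male 1 (0.055), and that of BCL6 without female 1 (0.14), female 2 (0.055) and male 2 (0.079).

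Among survival genes, BBC3, which encodes the pro-apoptotic PUMA, rose by 0.68 and the anti-apoptotic BCL2 by 0.47, and none of the 10 fell (1 lower at an unadjusted p under 0.05 in edgeR). BCL2 was at 0.33 without female 1 (adjusted p = 0.069). Of 15 genes of the TNF receptor family and NF-kB, only TNFRSF13C passed, with a rise of 0.56. This is a share near that of all tested genes (2.99% higher, 6.09% in either direction). At an unadjusted p under 0.05 in edgeR, 4 of the 15 were higher and 1 lower. TNFRSF13C encodes the receptor for the B cell survival factor BAFF, and its animals did not overlap between the classes. Of 11 plasma cell genes, JCHAIN (0.53, higher in 4 of 5 animals only) and DERL3 (0.48) rose. However, JCHAIN had an adjusted p of 0.095 in DESeq2, and the call of DERL3 was lost without female 1, without female 3 and without male 2. In the immediate early list, 1 of 17 fell, a share near that of all tested genes (3.1% lower, 6.09% in either direction). It was JUN at -0.42, lower in 4 of 5 animals only. The call was lost without female 1, without male 1 and in DESeq2, which called 0 of 17 (adjusted p of JUN 0.053).

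Interferon response genes (0 of 11), Toll-like receptors and adaptors (0 of 6), ribosomal proteins (0 of 16) and oxidative phosphorylation (0 of 22) had no gene that passed in edgeR's quasi-likelihood test or in DESeq2. At an unadjusted p under 0.05, 2, 1, 4 and 1 of them were higher and 0, 2, 0 and 0 lower. The lists held 18, 15, 21 and 24 genes in this order, and members that did not pass the filter on low counts were not tested.

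Levels across 5 bins of divergence showed where along the scale each gene differed; these bins share cells with the classes and are a description. Each value is the mean of the animals (5 or 6) over those of their subtypes with 10 or more cells in the bin, so the subtypes behind a bin differ. In plain CPM, SPAG16 was at 76.7 in cells at 0, and at 235, 248, 279 and 263 in cells above 0 and under 1, from 1 to under 2, from 2 to under 4, and at 4 or more. Most of its difference thus lay between cells at 0 and cells with any divergence. DLGAP1 also had its largest step just above 0, at 163, 382, 527, 580 and 560 CPM. ATRNL1 climbed through the bins, at 94.2, 108, 154, 192 and 287 CPM, and S100A11 was level at 150 and 150 before it reached 176, 272 and 306 CPM. LDB2 went down in every bin, at 153, 102, 92.4, 50.8 and 33.3 CPM, as did LILRB1 at 131, 89.1, 77.1, 50.9 and 24.4 CPM.

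**Figure D4:**
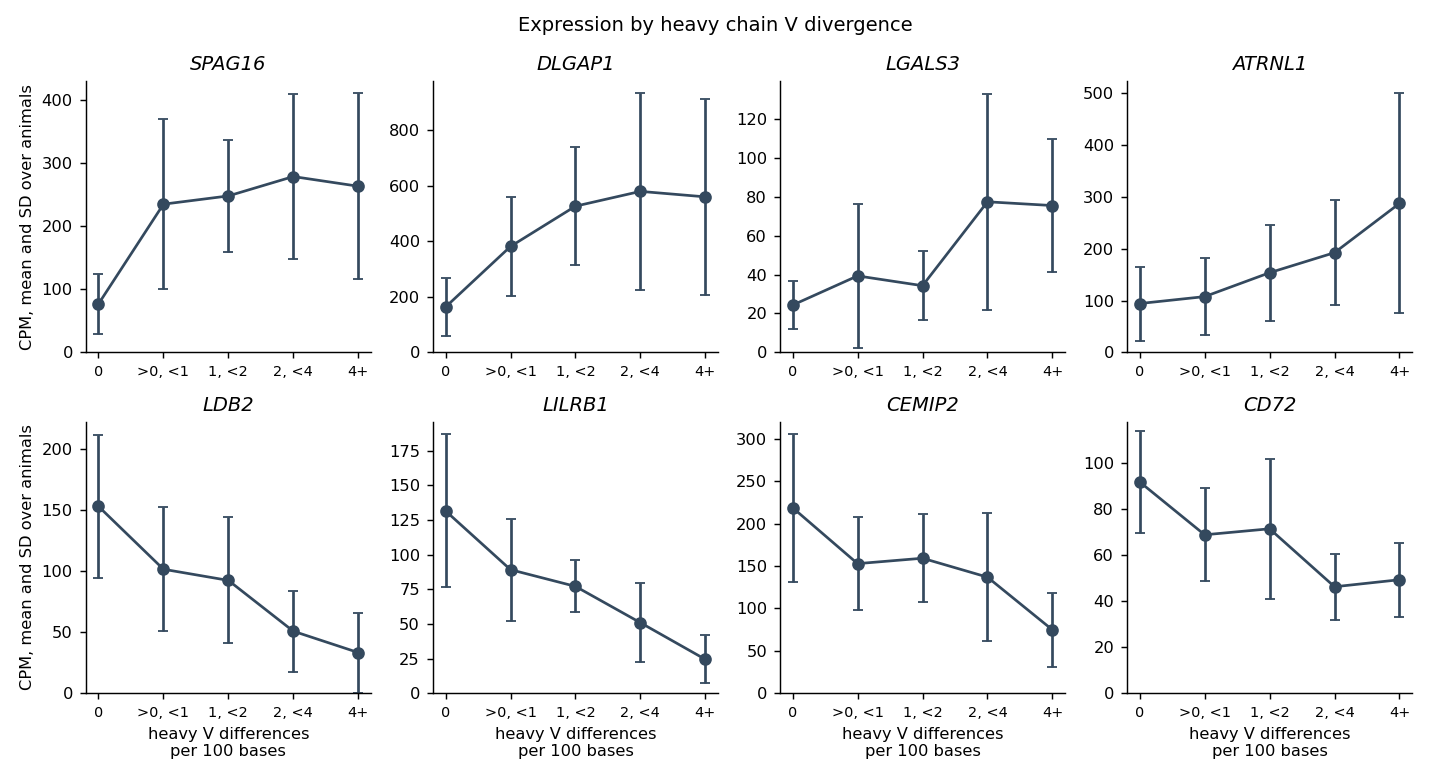
Level in CPM of 8 genes in 5 bins of heavy-chain divergence, with points for the mean of the animals and bars for the SD. SPAG16 is at 76.7 CPM in cells at 0 and at 235 CPM or more in each bin above 0, while LDB2 is lower in each successive bin.

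The intermediate cells were also compared with the unmutated cells, which are the same unmutated cells as above, so the values are given side by side. Of 4821 genes, 126 passed edgeR's quasi-likelihood test (2.61%), 70 higher (1.45%) and 56 lower (1.16%). SPAG16 was higher by 1.83 on the log2 scale beside 2.14 in mutated cells, DLGAP1 by 1.73 beside 2.07 and TNFSF9 by 1.12 beside 1.19. ATRNL1 was at 0.54 beside 1.37, LDB2 at -0.64 beside -1.52 and LILRB1 at -0.54 beside -1.25. S100A11 was at 0.22 (adjusted p = 0.185) beside 1.11, and ETS2 at -0.07 (adjusted p = 0.898) beside -0.82.

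Each subtype was then tested alone. In M-MBC 1, 65 of 5211 genes passed edgeR's quasi-likelihood test (1.25%), 33 higher (0.633%) and 32 lower (0.614%); 33 passed without female 1, 41 without female 3 and 27 without male 2. DLGAP1 went from 80.3 to 502 CPM (log2 change 2.77 ± 0.18) and SPAG16 from 54.9 to 317 CPM (2.57 ± 0.22), the latter without overlap between the animals of the classes. AUTS2, a regulator of transcription in neurons, went from 71.2 to 5.20 CPM (-4.03 ± 0.61). MPP7 (-3.28), the growth factor gene AREG (-2.94) and SNTB1, a syntrophin of the cell cortex, (-2.37) also fell. ALDH9A1, an aldehyde dehydrogenase, rose by 1.73. TNFRSF10B rose by 1.79, and without male 2 it was at 1.70 with an adjusted p of 0.072.

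In CD11c+ MBC 1, 183 of 5444 genes passed edgeR's quasi-likelihood test (3.36%), 108 higher (1.98%) and 75 lower (1.38%), with 116 without female 1 and 93 without female 3. DLGAP1 went from 70.6 to 639 CPM (2.97 ± 0.16) without overlap, and LGALS3 rose by 2.29. AREG went from 134 to 15.7 CPM (-3.07) and SOX4, a transcription factor of early B cells, from 106 to 19.7 CPM (-2.38) without overlap. SNTB1 (-2.38) and AUTS2 (-2.25) fell here too. ACOT7 (2.86) and SULF2 (2.57) passed in edgeR but not in DESeq2, where the adjusted p was 0.13 and 0.098.

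In M-MBC 2, 18 of 3490 genes passed edgeR's quasi-likelihood test (0.516%), 9 in each direction (0.258%), over 4 pairs. ATRNL1 went from 208 to 526 CPM (1.35 ± 0.18), SPAG16 rose by 1.45 and DLGAP1 by 1.27 ± 0.14, while LDB2 (-1.51) and CEMIP2 (-1.33) fell. LILRB1 was at -1.5, and at -0.98 without male 1 (adjusted p = 0.46). FUT8, a fucosyltransferase, was at 1.59 but had an adjusted p of 0.31 in DESeq2. The calls of ETS2 (-1.34) and LGALS3 (1.72, adjusted p = 0.0497) were lost without female 1 and without female 3, and that of LGALS3 also without male 1.

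In M-MZL BC, 13 of 4350 genes passed edgeR's quasi-likelihood test (0.299%), 8 higher (0.184%) and 5 lower (0.115%); 5 passed without female 1 or without female 3, and 22 without female 2 or without male 2. SPAG16 rose by 1.60 and DLGAP1 by 1.28. SYNE2, which links the nucleus to the cytoskeleton, went from 115 to 248 CPM (1.15 ± 0.17). PDGFD (1.24), MPP7 (-1.5), CCR6 (-0.97) and VAV3 (-0.85) passed with all 5 animals, but each call was lost without female 1 and without female 3, and that of CCR6 also without male 1.

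Whether the change differed between subtypes was tested as an interaction, and 9 of 4482 genes passed edgeR's quasi-likelihood test (0.201%), with 5 each without female 1, without male 1 and without male 2. DLGAP1 differed most (adjusted p = 2.98e-07), at 2.77 and 2.97 in M-MBC 1 and CD11c+ MBC 1 beside 1.27 and 1.28 in M-MBC 2 and M-MZL BC. S100A11 was at 1.49 in M-MBC 1, 1.81 in CD11c+ MBC 1, 0.56 in M-MBC 2 and -0.00 in M-MZL BC (adjusted p = 7.1e-05). In the same order, CD86 was at 1.48, 1.18, 0.08 and 0.68 (adjusted p = 0.000221), and CHN2, a Rac regulator, at 0.19, 1.42, 0.03 and -0.08 (adjusted p = 0.00038). SYNE2 was at -0.16, 0.14, 0.13 and 1.15 (adjusted p = 0.0225). MPP7, whose mean was not lower in mutated CD11c+ MBC 1 cells, passed as well (adjusted p = 0.0493), as did CD52 and MANBA.

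Over all subtypes together, with 1 pair for each of 6 animals, 1123 of 7940 genes passed edgeR's quasi-likelihood test (14.1%), 561 higher (7.07%) and 562 lower (7.08%). These differences contain the differences between subtypes. MAST4, a microtubule-associated kinase, went from 7.46 to 68.1 CPM (3.51 ± 0.25), and PTPRN2 (2.92), SULF2 (2.72), PDGFD (2.70), DLGAP1 (2.58) and RASSF6 (2.57) also rose. HMGN3, a nucleosome-binding protein, went from 50.0 to 4.97 CPM (-3.25) and AUTS2 from 86.6 to 13.2 CPM (-3.02). ABCB4 (-3.02), SNTB1 (-2.95), CRY1 (-2.90) and AREG (-2.82) fell as well. Of the TNF receptor and NF-kB list 8 of 15 rose over all subtypes (median 0.34), beside 1 of 15 within subtypes (0.04). In the immediate early list, 7 of 18 fell and 1 rose over all subtypes, beside 1 of 17 lower within.

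Cells that the heavy-chain rule had not put into a class were used for a separate reading. Cells with the heavy chain between the classes, or with no heavy-chain reference, were split by the light chain at 1 difference per 100 bases or more against 0. The 15 pairs of animal and subtype with enough cells held 345 cells and 396 cells. Of 1709 genes, 2 passed edgeR's quasi-likelihood test (0.117%), both higher. They were SPAG16, from 238 to 425 CPM (0.75 ± 0.15, adjusted p = 0.00871, higher in 5 of 5 animals), and S100A6 (0.63 ± 0.13, adjusted p = 0.00871, higher in 3 of 5). DLGAP1 was at 0.57 (adjusted p = 0.138, higher in 5 of 5), ATRNL1 at 0.54 (adjusted p = 0.331) and CEMIP2 at -0.45 (adjusted p = 0.314, lower in 5 of 5).

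Unswitched cells of Activated B cells, CD11c+ MBC 2, C-MBC 1 and C-MBC 2 were compared by the same heavy-chain rule. Naive subtypes and antibody-secreting cells were not part of this comparison. The 7 pairs with enough cells held 333 mutated and 138 unmutated cells. In edgeR's quasi-likelihood test 15 of 2304 genes passed (0.651%), 12 higher (0.521%) and 3 lower (0.13%). DLGAP1 rose by 1.24 ± 0.15 (adjusted p = 2.33e-06), SPAG16 by 0.90 ± 0.17 (adjusted p = 0.002) and ATRNL1 by 1.41 (adjusted p = 0.0249). The memory genes S100A6 (0.62), S100A4 (0.62), CRIP1 (0.56) and VIM (0.53) rose with them, as did CHN2 (0.91). CEMIP2 (-1.06, adjusted p = 0.012) and LDLRAD4 (-1.43, adjusted p = 0.000128) fell. LDB2 at -0.95 (adjusted p = 0.0608) and LGALS3 at 1.06 (adjusted p = 0.0591) did not pass.

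Other populations of the same blood set the scale of these levels. SPAG16 was at 15.5 ± 10.9 CPM in Naive B cells 1, 779 ± 318 in switched cells of C-MBC 1 and 957 ± 390 in switched cells of CD11c+ MBC 2. DLGAP1 was at 8.91 ± 3.34 CPM in Naive B cells 1, 495 ± 194 in C-MBC 1 and 141 ± 66.5 in switched cells of C-MBC 2. LDB2 was at 52.1 CPM in Naive B cells 1, 102 in C-MBC 1, 12.3 in C-MBC 2 and 125 in CD11c+ MBC 2. Unmutated memory cells thus lay above naive cells in SPAG16 and DLGAP1, and switched C-MBC 1 cells had LDB2 levels between those of mutated and unmutated unswitched cells.

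Markers of cells other than B and T cells had overlapping ranges in the classes, and red cell RNA was high in the mutated cells of 1 animal. The summed level over the animals was 15.3 to 331 CPM in unmutated and 17.3 to 125 CPM in mutated cells for natural killer cells, and 40.5 to 144 and 32.7 to 138 CPM for monocytes. For dendritic cells it was 50.3 to 353 and 43.4 to 202 CPM, with CLEC10A at 0 in both classes and CLEC9A at 0 in unmutated cells. For platelets and red cells it was 8.97 to 462 and 10.7 to 1819 CPM, where the haemoglobin gene HBA had a mean of 27.1 CPM in unmutated and 387 CPM in mutated cells. Over all subtypes HBA passed edgeR's quasi-likelihood test (log2 change 1.91 ± 0.47, adjusted p = 0.0055) although it was higher in 3 animals and lower in 3, with 826 CPM in mutated cells of male 2 and at most 84.5 CPM in those of any other animal. GNLY, of the natural killer list, also passed over all subtypes, from 9.58 ± 5.34 to 19.6 ± 14.5 CPM (log2 change 1.18, adjusted p = 0.00485, higher in 5 of 6 animals). The part of these cells in the results was not tested.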

How the data were processed

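Single-cell 5′ RNA and B cell receptor libraries of 6 animals were analysed from a table of whole-number counts of unique molecules per gene and cell, a table of cell labels and a table of receptor contigs that the authors deposited. The cell labels include the mitochondrial and ribosomal percent of counts per cell as deposited by the authors. Per the submitters' processing notes, Seurat 5.0.1, Cell Ranger 9.0.1 and R 4.3.1 were used, and the genome build, annotation and immunoglobulin reference are not given in the sources used here. Subtypes and the IGHM or IGHD assignment of the contigs are as deposited by the authors. Every cell carried their label of a singlet, so no doublet caller was run. The mutated, intermediate and unmutated classes were computed here from the contigs.

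The file lists 22584 genes. Of these, 5813 have only an identifier (14.9% of counts) and 23 are named immunoglobulin genes (0.186%). Both were left out of the main fits, because receptor transcripts define the classes. Divergence was measured against 320 references of 81 V genes, shared by a median of 8 CDR3s (at most 94, and 1 reference with CDR3s of a single length), over 279 to 315 bases. Of the cells that met the contig rule, 80 had an incomplete V segment and 367 no reference.

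Counts were summed over cells, with 10 or more cells in each sum, and tested with edgeR 4.0.16 (TMM scaling, filterByExpr, quasi-likelihood test, Benjamini-Hochberg adjustment) in R 4.3.3. The pair of 1 animal and 1 subtype was the block, since both classes came from the same animal and library. Levels in CPM of the fits are TMM-scaled. Levels by divergence bin and in other populations are plain CPM of the named genes. DESeq2 1.42.0 and limma 3.58.1 were alternatives, and features of animals were tested by exact two-sided sign-flip permutation, whose smallest p is 0.0625 for 5 animals and 0.03125 for 6. The scripts were tested on simulated counts. Sequences are the authors' contigs. Named genes were the 10 largest changes in each direction within subtype (genes past the threshold, at least 4 in mean log2 CPM, with 1 direction in the 5 animals that had pairs), up to 6 in each direction over all subtypes, up to 4 in single subtypes and the interaction, and the leading members of each gene list. CR2 did not pass the filter of the fits. Some genes that met the rule are not reported here. The members, lists and tests were chosen with earlier results of these data known. The subtypes came from the same expression values, so p-values between the classes within a subtype are conditional on those labels.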

Additional observations from a re-analysis of the deposited data

Results flagged for a closer look

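In 38 groups of animals, the highest or lowest animal was compared with the spread of the others, and 5 groups held an animal that stood apart, where chance gives about 1 in 20. Each value is the difference of mutated minus unmutated cells of 1 animal. Framework 4 divergence was 1.81 per 100 bases in female 4, which had 36 mutated and 13 unmutated cells, and 0.799 to 1.11 in the other animals. IGHJ1 use was 3.94 percentage points higher in mutated cells of male 1 and between -2.75 and -0.687 in the others. IGHJ3 use was -15.4 percentage points in female 4 and between -0.276 and 4.49 in the others. The median number of genes per cell was 255 higher in female 2 and 117.5 to 143.5 higher in the others. The log2 ratio of CD3D was 2.30 in female 3 and 0.63 to 1.10 in the others.

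The change with mutation differed between subtypes by the interaction in edgeR's quasi-likelihood test for DLGAP1 (adjusted p = 2.98e-07), S100A11 (7.1e-05), CD86 (0.000221) and CHN2 (0.00038), whose values by subtype are given above.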

How the results depend on the processing

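Counts of called genes were lower without the pairing of classes by animal and subtype. Within subtype, 273 genes were called; without this replicate block 9 were, and with almost no filter on low counts 473, with mutated cells from 3 differences per 100 bases 168, with limma on 1 difference for each animal 139, without M-MBC 1 164, without CD11c+ MBC 1 137, in the females 170 and in the males 69. Over all subtypes, 1123 became 26 without the replicate block, 639 in the females and 744 in the males. DESeq2 called 206 within subtype, 205 of them shared with edgeR, and 53, 23, 7 and 7 in CD11c+ MBC 1, M-MBC 1, M-MBC 2 and M-MZL BC, where no replicate block gave 1, 2, 0 and 0. Leaving out 1 animal gave 173 to 244 genes within subtype, 776 to 1172 over all subtypes, 27 to 72 in M-MBC 1, 13 to 17 in M-MBC 2, 5 to 22 in M-MZL BC, 93 to 167 in CD11c+ MBC 1, 5 to 13 for the interaction and 6 to 8 features with 1 direction in every animal.

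The 20 genes named for their change within subtype kept their direction in every setting run, and 15 lost the call without the replicate block. In their other 390 settings 7 calls were lost. Directions reversed for genes that had not passed: PPBP was at 0.067 in DESeq2, 0.078 with mutated cells from 1 difference, 0.036 with references of 5 CDR3s, -0.30 to 0.34 with 1 animal left out, 0.071 in limma, 0.13 without M-MBC 2 and 0.10 without CD11c+ MBC 1. LYZ was at 0.042, 0.0083, 0.0083 and 0.0025 (references of 5 CDR3s, sums of 20 cells, females, without M-MBC 2), IRF7 at -0.13 in the females, -0.082 without M-MBC 1 and -0.051 to 0.12 with 1 animal left out, CD1C at 0.035 in the males and PF4 at -0.014 in limma. Counts and genes per cell became -24.0 and -32.5 within subtypes. The causes were not tested. Sums of as few as 11 cells limit the genes that could be tested.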

Other observations

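Several transcription regulators outside the lists were among the 273 genes called within subtype; they were chosen after their values were seen. In mutated cells TCF4, an E-protein partner of B cell factors, rose by 0.65 on the log2 scale, RBPJ, the DNA-binding protein of Notch signalling, by 0.78, and ZBTB32, a zinc-finger repressor known from memory B cells, by 0.67. The B lineage factors EBF1 (-0.37) and PAX5 (-0.30), with MEF2C (-0.37), BCL11A (-0.41) and RUNX1 (-0.54), fell. GADD45A, a stress-response gene, rose by 0.91 and GSN, the actin-severing gelsolin, by 0.86, while PLAC8 changed by -0.69 and the signalling scaffold BANK1 by -0.19.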
